A study of Mus musculus with 20 samples.

Results

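The circadian clock genes described here were Arntl, Clock, Per1, Per2, Per3, Cry1, Cry2, Nr1d1, Nr1d2 and Dbp. They were chosen by name, as the core of the molecular clock and one of its output factors, and not by a rule on their measured values. Earlier results of these data were known when the list was made. All 10 were found among the 22090 gene symbols of the table of raw read counts. Rora, which encodes a nuclear receptor that acts on Arntl, was set beside them. RNA sequencing was performed on 20 skin tissues, comprising 8 normal skin (NS), 8 actinic keratoses (AK) and 4 cutaneous squamous cell carcinomas (cSCC). All tissues came from 8 female Hairless SKH-1 mice, of which 4 were irradiated with ultraviolet rays and 4 were not. The mice were 7 months old when supplied, and by the study's methods tissues were taken months later, after the course of irradiation. By the study's description, each unirradiated mouse gave 1 NS, and each irradiated mouse gave 1 NS, 2 AK and 1 cSCC. AK, the keratinocyte lesions that can precede cSCC, therefore stood for 4 mice, and every cSCC and AK came from an irradiated animal. The labels do not tell irradiated from unirradiated NS, nor which tissues shared a mouse, so samples were treated as unpaired, and p-values may be too small. The labels name daily irradiation and a HiSeq instrument, whereas the study's methods name fewer days a week and a NextSeq instrument. The time of day at which tissues were taken is not given in the sources used here.

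The clock is a feedback loop of transcription that runs in most cells of the body, epidermal keratinocytes included, with a period of about a day. ARNTL (also called BMAL1) and CLOCK form a dimer that binds E-boxes and activates the Per and Cry genes, whose proteins return to the nucleus and repress that dimer. In a second loop the REV-ERB receptors, encoded by Nr1d1 and Nr1d2, repress Arntl through ROR elements that RORA activates, and DBP carries the rhythm to output genes through D-boxes. In skin the clock is known to time cell division and repair of ultraviolet damage in the epidermis. Most of these transcripts rise and fall over the day. Since the time of collection is unknown, clock time and tissue cannot be told apart in the comparisons with NS. By the study's description AK and cSCC came from the same irradiated mice, so the time of day of each mouse falls on both groups. The labels do not pair these tissues, and the order in which those of a mouse were taken is not given.

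The promoters below were printed because they hold the 3 kinds of element through which these genes act on each other. They were taken from RefSeq on GRCm38.p6 as windows from 250 bases before to 50 bases after an annotated transcription start, 5′ to 3′ on the strand of the gene, with 13 windows for 9 of the 10 members. Per2 was not matched. Capitals mark the motifs searched on both strands, CACGTG for the E-box, TTATGTAA or TTACGTAA for the D-box and TAGGTCA or TGGGTCA for the core of the ROR element. Of the 13 windows, 4 held a motif. The Per3 window (chr4:151044616-151044915, minus strand) held 2 D-boxes, starting at positions -205 and -158 relative to the transcription start. A Cry1 window (chr10:85185005-85185304, minus strand) and a Per1 window (chr11:69098699-69098998, plus strand) each held an E-box, at positions -60 and -166. A window of Arntl (chr7:113207261-113207560, plus strand) held a ROR element core after the start.
Per3 promoter: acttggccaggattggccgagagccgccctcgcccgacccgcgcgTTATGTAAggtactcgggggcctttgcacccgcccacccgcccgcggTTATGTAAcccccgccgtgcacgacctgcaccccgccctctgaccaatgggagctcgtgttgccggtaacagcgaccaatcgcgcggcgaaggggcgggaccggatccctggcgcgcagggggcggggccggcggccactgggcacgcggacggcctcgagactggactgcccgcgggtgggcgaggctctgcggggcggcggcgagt
Cry1 promoter: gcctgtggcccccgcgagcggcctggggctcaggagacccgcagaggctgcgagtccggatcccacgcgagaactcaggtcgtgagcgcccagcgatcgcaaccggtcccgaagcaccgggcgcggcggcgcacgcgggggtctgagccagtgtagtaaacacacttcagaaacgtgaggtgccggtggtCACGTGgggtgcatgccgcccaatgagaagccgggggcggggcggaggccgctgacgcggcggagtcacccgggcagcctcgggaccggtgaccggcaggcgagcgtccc
Per1 promoter: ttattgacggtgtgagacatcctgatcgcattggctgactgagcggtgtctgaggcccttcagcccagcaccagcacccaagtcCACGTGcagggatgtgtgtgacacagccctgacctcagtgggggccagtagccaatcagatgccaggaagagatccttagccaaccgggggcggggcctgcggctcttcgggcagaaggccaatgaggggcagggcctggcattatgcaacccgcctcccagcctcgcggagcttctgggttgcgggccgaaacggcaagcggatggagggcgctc
Arntl promoter: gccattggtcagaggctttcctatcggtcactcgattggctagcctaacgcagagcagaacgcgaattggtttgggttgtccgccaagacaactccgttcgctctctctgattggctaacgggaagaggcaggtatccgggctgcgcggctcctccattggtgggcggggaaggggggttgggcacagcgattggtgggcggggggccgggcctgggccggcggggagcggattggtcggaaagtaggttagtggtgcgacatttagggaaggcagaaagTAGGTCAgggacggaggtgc
Among 32851 RefSeq windows of the same length, an E-box was found in 7.15%, a D-box in 1.06% and a ROR element core in 6.45%. A match describes the letters of these windows and not bound sites, and elements farther from the start were not searched.

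Library totals ranged from 1624325 to 6295575 counts in NS, from 867219 to 14055206 in AK and from 775750 to 7095102 in cSCC, so that 3 counts stood for 0.213 CPM in the deepest library and 3.87 CPM in the shallowest. CPM are counts scaled to a common library total with trimmed mean of M-values (TMM) factors over the 20 samples. These floors cover counting error only. The 6 keratinocyte markers were detected in every group, and their summed level was 6378 to 19004 CPM in NS, 9625 to 16972 CPM in AK, and 17976, 17175, 5145 and 3785 CPM in cSCC replicates 18, 19, 20 and 21. Some cSCC libraries stood apart from the rest. In cSCC replicate 21, 6 of 6 heart muscle markers were above 3 counts and their sum was 56271 CPM, against 76.4 to 156 CPM in the other 3 cSCC, 12.5 to 74.4 CPM in AK and 8.72 to 42.6 CPM in NS. In cSCC replicate 20, 6 of 6 lung markers were above 3 counts and their sum was 35805 CPM, against at most 51.7 CPM elsewhere. In cSCC replicate 18, haemoglobin genes held 46.8% of counts. Endothelial markers summed to 88.9 to 501 CPM in the 4 cSCC, above every AK (at most 79.1) and NS (at most 88.5). Adipocyte markers summed to 2.32 to 8.35 CPM in cSCC replicates 18, 19 and 21 and 1200.3 CPM in replicate 20, against 113 to 1492 CPM in NS and 139 to 814 CPM in AK, with Plin1 at 0 in every cSCC. Skeletal muscle markers summed to 8322 CPM in cSCC replicate 21 and 501 to 926 CPM in the other cSCC. They also spread widely in NS (545 to 7622 CPM, median 3017) and AK (24.9 to 4983 CPM, median 1014). The part of these cell types in the results below was not tested. In bulk tissue, fewer cells of a type and less RNA per cell cannot be told apart.

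A gene was called changed at a Benjamini-Hochberg adjusted p under 0.05 in edgeR's quasi-likelihood test with a fold change above 1.5 or below 0.67. In AK vs. NS, 1 of the 9 members tested was called, Clock, beside 4.64% of all genes tested (542 of 11677), 2.26% higher and 2.38% lower. In cSCC vs. NS, 2 of 10 were called, Nr1d1 higher and Per2 lower, beside 19.3% of all genes (2340 of 12097), 11.7% higher and 7.65% lower. In cSCC vs. AK, 3 of 9 were called, Nr1d1 higher and Clock and Per2 lower, beside 24.4% of all genes (2935 of 12032), 16% higher and 8.34% lower. With so few members, these counts were not far from the backgrounds. The median log2 fold change of the members tested was 0.11 in AK vs. NS, -0.34 in cSCC vs. NS and -0.42 in cSCC vs. AK, against -0.04, 0.14 and 0.17 over all genes tested. Some of these medians moved when 1 library was left out. For the members, AK vs. NS fell below 0 without NS replicate 9 (-0.0057), AK replicate 10 (-0.02) or AK replicate 14 (-0.07). In these fits Dbp also passed the filter, so 10 members were tested in place of 9. Among the other 9 the middle value stayed above 0 (Nr1d2 at 0.074, Per2 at 0.0026 and Nr1d2 at 0.079). In cSCC vs. AK the median was -0.02 without cSCC replicate 19 and -0.12 without replicate 20, both with Dbp added, and -0.74 without replicate 21, with 9 members. With library size alone in place of TMM, the medians became -0.015, -0.74 and -0.72 for the members and -0.13, -0.17 and -0.09 for all genes, and the split of calls turned from 1414 higher and 926 lower to 625 and 1332 in cSCC vs. NS and from 1931 and 1004 to 1021 and 1356 in cSCC vs. AK. The 3 comparisons share their samples in pairs and are not independent of each other.

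**Figure D1:**
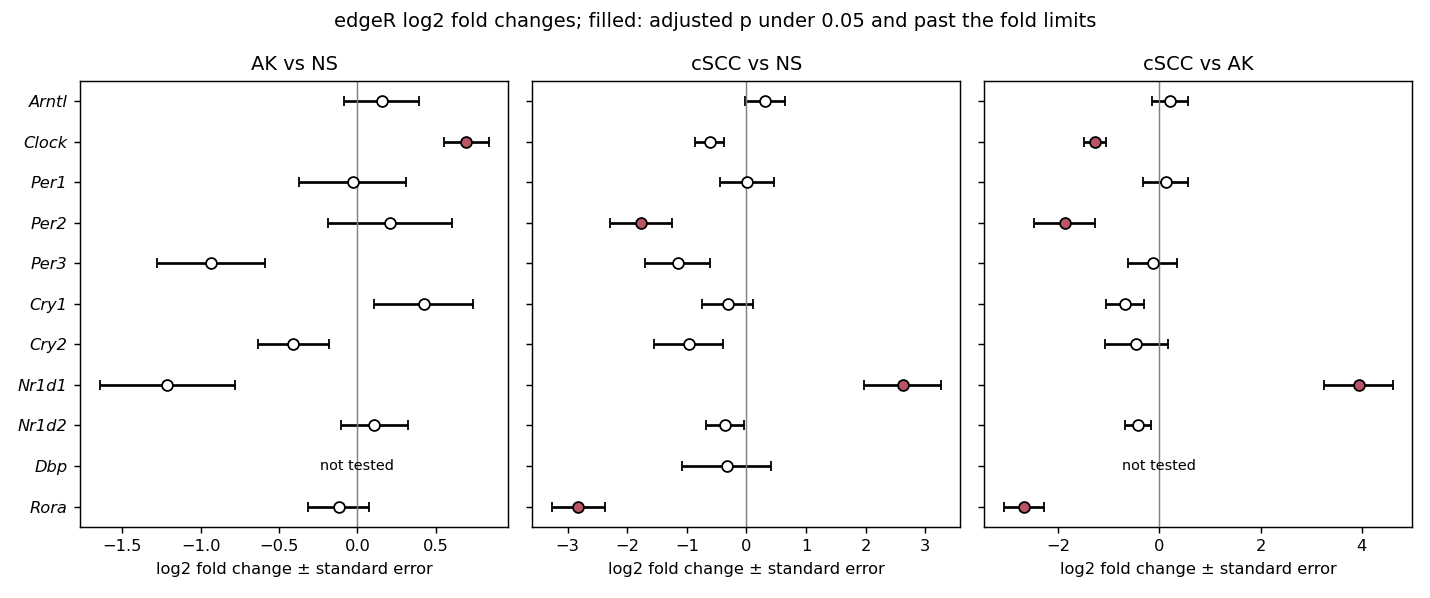
Log2 fold change (x axis, with its standard error as bars) of each clock gene and Rora in the 3 comparisons (AK vs. NS at left, then cSCC vs. NS, then cSCC vs. AK), with filled points for genes called changed. Clock is filled in AK vs. NS, Nr1d1 and Per2 in both cSCC comparisons and Clock in cSCC vs. AK, and Dbp was not tested in 2 of the 3.

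Clock, the histone acetyltransferase partner of ARNTL (chr5:76209868-76304792 on GRCm38, minus strand), was the only member whose groups did not overlap in 2 comparisons. Its level was 44.7 CPM at the lowest, 61.6 at the median and 79.8 at the highest in the 8 NS. In the 8 AK the corresponding levels were 83.2, 99.5 and 119 CPM. All AK lay above all NS, a lack of overlap in this direction that 0.394% of all genes showed, with 0.128% in the other. The log2 fold change was 0.70 (SE 0.14) with an adjusted p of 0.0190 in edgeR's quasi-likelihood test. Over 24 alternatives the adjusted p ranged from 0.00138 to 0.0742, and the call was lost with all 20 samples in 1 fit, where 9 genes in all were called.

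In cSCC the level of Clock was 34.0, 47.0, 41.0 and 31.6 CPM in replicates 18 to 21. All 4 lay below all AK, as did the cSCC of 6.84% of all genes, and only replicate 19 reached into the range of NS. The log2 fold change was -1.27 (SE 0.21, adjusted p = 0.00248) in cSCC vs. AK, where the call held under every alternative run, with adjusted p from 1.65e-07 to 0.0143. In cSCC vs. NS the value was -0.62 (SE 0.24, adjusted p = 0.0854), which missed the call, and it was called with all 20 samples in 1 fit (-0.69, adjusted p = 0.0171). Without cSCC replicates 20 and 21, cSCC vs. AK remained at -1.22 (adjusted p = 0.00882).

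Arntl, which encodes the indispensable partner of CLOCK (chr7:113207465-113314126, plus strand), showed no such order. Its level was 9.68 CPM at the lowest, 19.5 at the median and 24.7 at the highest in NS, and 12.4, 19.4 and 32.3 CPM in AK. In cSCC it was 16.7, 11.4, 30.7 and 25.8 CPM. The ranges of the 3 groups overlapped throughout. The log2 fold changes of Arntl were 0.15 (SE 0.24, adjusted p = 0.728) in AK vs. NS, 0.31 (SE 0.34, adjusted p = 0.553) in cSCC vs. NS and 0.21 (SE 0.36, adjusted p = 0.705) in cSCC vs. AK, with the sign of the last turning to -0.044 under library size alone. The log2 ratio of Clock to Arntl counts within a library, which needs no scaling between libraries and was chosen after the values were seen, had a mean of 1.81 ± 0.53 in the 8 NS, 2.39 ± 0.38 in the 8 AK and 0.94 ± 0.80 in the 4 cSCC (± SD). The ratio spanned 1.09 to 2.64 in NS, 1.68 to 2.90 in AK and 0.29 to 2.04 in cSCC, so the groups overlapped.

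**Figure D2:**
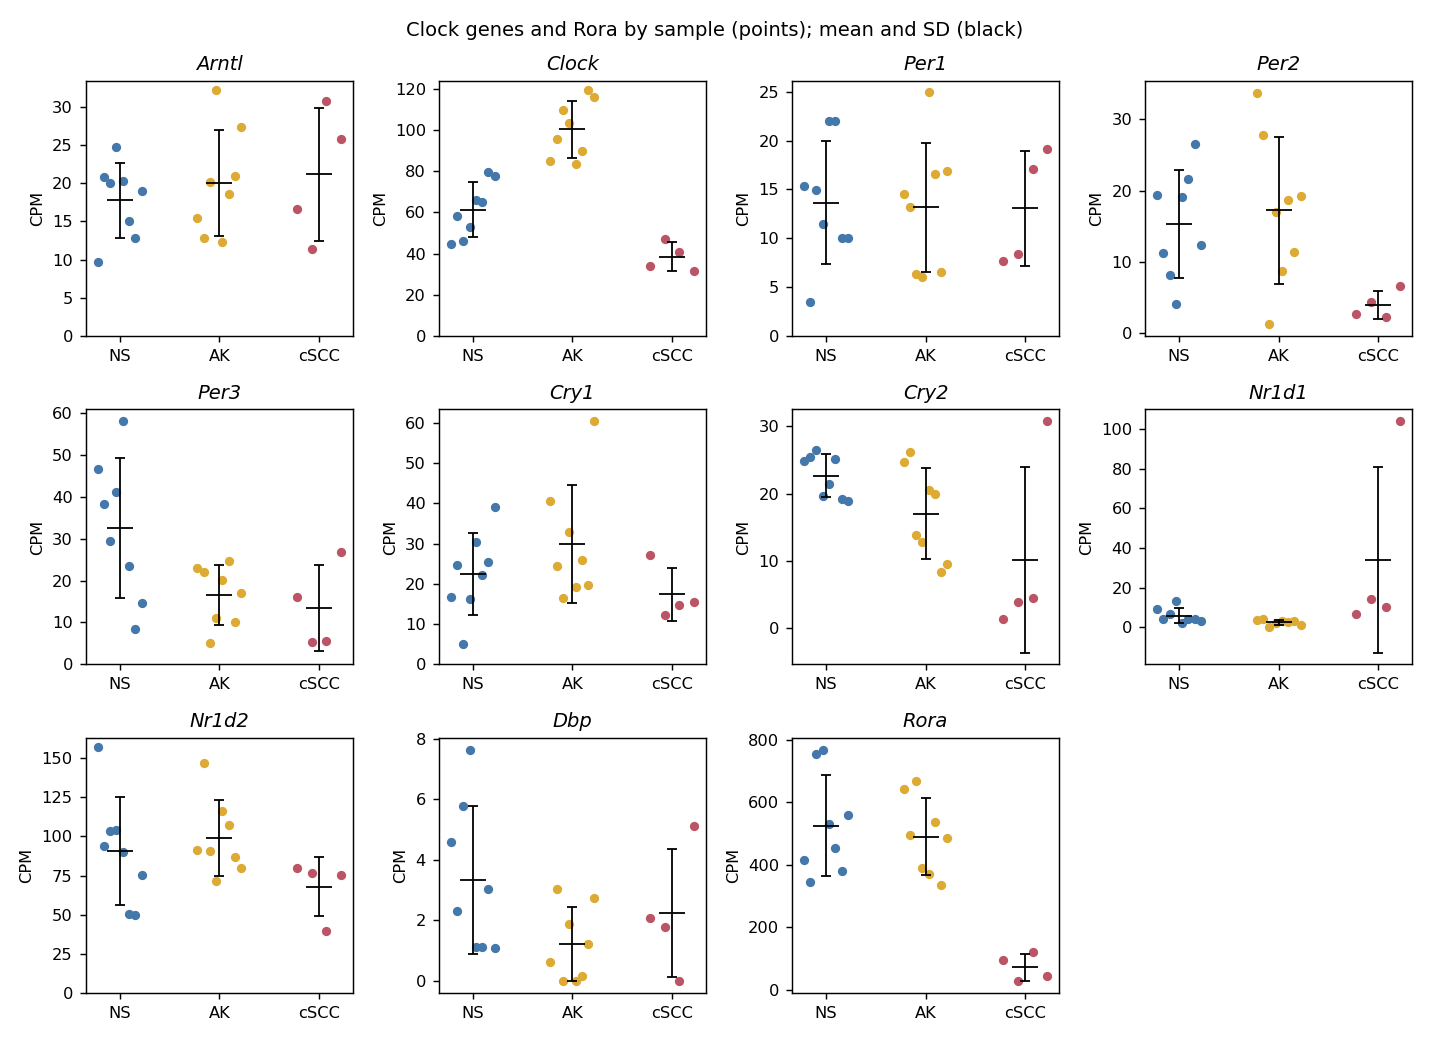
CPM (y axis, linear, separate scale for each gene) of the 10 clock genes and Rora in each of the 20 samples by group, with the mean and SD in black. All AK lie above all NS for Clock, the 4 cSCC lie below all other samples for Rora, and 1 cSCC sample stands far above the rest for Nr1d1.

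The Period genes encode the repressors that, with the cryptochromes, close the main loop. Per2 (chr1:91415982-91459324, minus strand) was 4.05 CPM at the lowest, 15.7 at the median and 26.5 at the highest in NS, and 1.26, 17.9 and 33.8 CPM in AK. In cSCC it was 2.78, 4.39, 2.28 and 6.62 CPM, from 4, 10, 2 and 40 counts. All cSCC were below the medians of NS and AK, but NS replicate 5 (4.05 CPM) and AK replicate 12 (1.26 CPM, 1 count) lay as low, so the groups overlapped. In cSCC vs. NS this held for all 10 members, whereas the groups did not overlap for 8.43% of all genes, with cSCC higher for 2.7% and lower for 5.73%. The log2 fold change of Per2 was -1.77 (SE 0.53, adjusted p = 0.0311) in cSCC vs. NS and -1.87 (SE 0.60, adjusted p = 0.0357) in cSCC vs. AK. Both calls stood close to the threshold. In cSCC vs. NS the call was lost without any 1 of NS replicates 1, 6 and 7 or cSCC replicates 18, 19 and 20 (adjusted p of 0.0511 to 0.0641), and in cSCC vs. AK without any 1 of AK replicates 10, 11, 13, 15 and 17 or cSCC replicates 19 and 20 (0.0541 to 0.0710). With limma voom and sample quality weights the adjusted p was 0.377 and 0.277. In AK vs. NS Per2 gave 0.21 (SE 0.40, adjusted p = 0.780).

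Per3, a Period paralog whose window held the 2 D-boxes printed above (chr4:151003652-151044665, minus strand), was 8.52 CPM at the lowest, 33.9 at the median and 58.0 at the highest in NS. In AK it was 5.04, 18.6 and 24.8 CPM. Of the NS, 5 of 8 lay above every AK, while NS replicates 7, 8 and 9 lay among them. The log2 fold change of Per3 in AK vs. NS was -0.93 (SE 0.34, adjusted p = 0.104), which missed the call, and DESeq2 gave -0.96 with an adjusted p of 0.0499. Without NS replicate 8 the edgeR value was -1.07 (adjusted p = 0.0342), past the call. In cSCC Per3 was 15.98, 5.27, 5.69 and 26.8 CPM, and neither comparison was called (-1.16, SE 0.55, adjusted p = 0.150 vs. NS, and -0.13, SE 0.49, adjusted p = 0.870 vs. AK). Per1, the Period gene known to respond quickly to glucocorticoids and other stimuli (chr11:69095217-69109960, plus strand), had overlapping ranges in the 3 groups. It was 3.48 to 22.01 CPM (median 13.2) in NS, 6.08 to 25.0 CPM (median 13.9) in AK, and 7.64, 8.35, 17.1 and 19.2 CPM in cSCC. Its log2 fold changes were -0.03 (SE 0.34, adjusted p = 0.967) in AK vs. NS, 0.01 (SE 0.46, adjusted p = 0.991) in cSCC vs. NS and 0.12 (SE 0.45, adjusted p = 0.871) in cSCC vs. AK, and the sign of both cSCC values turned under library size alone (-0.26 and -0.11).

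The cryptochromes are the stronger repressors of the CLOCK and ARNTL dimer. Cry2 (chr2:92403646-92434043, minus strand) was the steadiest member in NS, at 18.9 CPM at the lowest, 23.1 at the median and 26.5 at the highest. In AK it was 8.39, 16.9 and 26.2 CPM, and in cSCC 1.39, 3.95, 4.55 and 30.8 CPM, from 2, 9, 4 and 186 counts. In cSCC, 3 of 4 samples lay below every NS and AK, and replicate 21, the library with the heart muscle markers, lay above every NS and AK. With all 4 cSCC the log2 fold change of Cry2 was -0.97 (SE 0.57, adjusted p = 0.250) vs. NS and -0.45 (SE 0.63, adjusted p = 0.633) vs. AK, neither called by edgeR. With limma voom and sample quality weights the value vs. NS was -2.15 (adjusted p = 0.0405), past the call, as it was by the study's unadjusted rule. Without replicate 21 the edgeR value was -2.74 (adjusted p = 0.00123) vs. NS and -2.38 (adjusted p = 0.00965) vs. AK, both called, beside 14.2% and 14.7% of all genes in those fits. Without replicates 20 and 21 it was -2.96 (adjusted p = 0.00288) and -2.52 (adjusted p = 0.0192). In AK vs. NS Cry2 gave -0.41 (SE 0.23, adjusted p = 0.271).

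Cry1, the paralog whose window held an E-box (chr10:85131700-85185064, minus strand), was 5.09 CPM at the lowest, 23.4 at the median and 39.2 at the highest in NS, 16.4, 25.3 and 60.6 CPM in AK, and 27.1, 12.3, 14.8 and 15.5 CPM in cSCC. The groups overlapped, although 3 of 4 cSCC lay below every AK. Its log2 fold changes were 0.42 (SE 0.32, adjusted p = 0.427) in AK vs. NS, -0.31 (SE 0.43, adjusted p = 0.643) in cSCC vs. NS and -0.68 (SE 0.37, adjusted p = 0.193) in cSCC vs. AK. The log2 ratio of Cry1 to Cry2 counts, chosen after the values were seen, had a mean of -0.19 ± 1.02 in the 8 NS, 0.80 ± 0.93 in the 8 AK and 1.66 ± 2.15 in the 4 cSCC (± SD), and these means differed by less than the larger SD of each pair.

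Nr1d1, which encodes REV-ERB alpha, a heme-binding repressor of Arntl (chr11:98767932-98775333, minus strand), had the largest log2 fold change of any member with all 4 cSCC. This did not hold vs. NS or AK without replicate 21, where Cry2 and Per2 were larger in size than Nr1d1. Nr1d1 was 2.25 CPM at the lowest, 4.30 at the median and 13.05 at the highest in NS, and 0, 2.78 and 4.12 CPM in AK. The AK sample at 0 counts was replicate 12, where 3 counts stood for 3.78 CPM. In cSCC Nr1d1 was 6.95, 14.5, 10.2 and 104 CPM, from 10, 33, 9 and 629 counts. All 4 cSCC lay above all AK, a lack of overlap in this direction that 3.33% of all genes showed, whereas only cSCC replicates 19 and 21 lay above all NS. The log2 fold change was 3.93 (SE 0.68, adjusted p = 0.00256) in cSCC vs. AK and 2.62 (SE 0.64, adjusted p = 0.0135) in cSCC vs. NS. The highest sample was again replicate 21. Without it the cSCC mean was 10.6 ± 3.79 CPM (SD, n = 3), the value vs. AK was 2.06 (adjusted p = 0.0272), still called, and the value vs. NS was 0.89 (adjusted p = 0.289), no longer called. The cSCC vs. NS call was also lost with limma voom and sample quality weights (1.49, adjusted p = 0.149), and DESeq2 gave no adjusted p for it. Without replicates 20 and 21 the values were 2.14 (adjusted p = 0.0462) vs. AK and 0.89 (adjusted p = 0.3599) vs. NS.

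**Figure D3:**
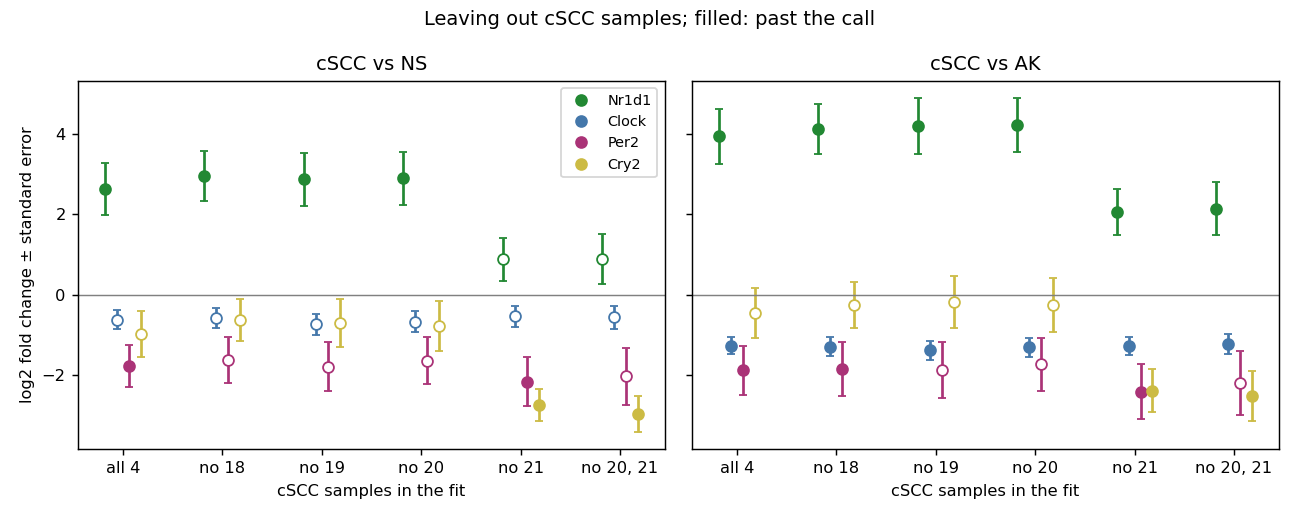
Log2 fold change (y axis, with its standard error as bars) of Nr1d1, Clock, Per2 and Cry2 in cSCC vs. NS (left) and cSCC vs. AK (right), with all 4 cSCC, without each of replicates 18 to 21 in turn and without replicates 20 and 21, filled where called. Without replicate 21, Nr1d1 drops from 2.62 to 0.89 vs. NS and from 3.93 to 2.06 vs. AK, Cry2 falls to -2.74 and -2.38, and Clock stays near -1.27 vs. AK.

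Heart muscle markers and Nr1d1 were both highest in cSCC replicate 21. The marker sum was 56271 CPM in the library with 104 CPM of Nr1d1, and 76.4, 104 and 156 CPM in cSCC replicates 18, 19 and 20, above the highest AK (74.4 CPM) in each. Nr1d1 in these 3 was 6.95, 14.5 and 10.2 CPM, from 10, 33 and 9 counts. The part of heart muscle in the level of Nr1d1 and Cry2 in replicate 21 was not tested. The gene also overlaps another. Nr1d1 shares 263 exon bases with Thra, the thyroid hormone receptor alpha gene on the opposite strand, and the strand used in counting is not given in the sources used here. Reads from the shared bases may therefore have been assigned to either gene or to neither. Thra was at 29.8 CPM (180 counts) in cSCC replicate 21, the highest of the cSCC (3.95 to 29.8 CPM, median 19.3). It was 7.61 to 22.5 CPM in NS and 3.60 to 12.97 CPM in AK.

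**Figure D4:**
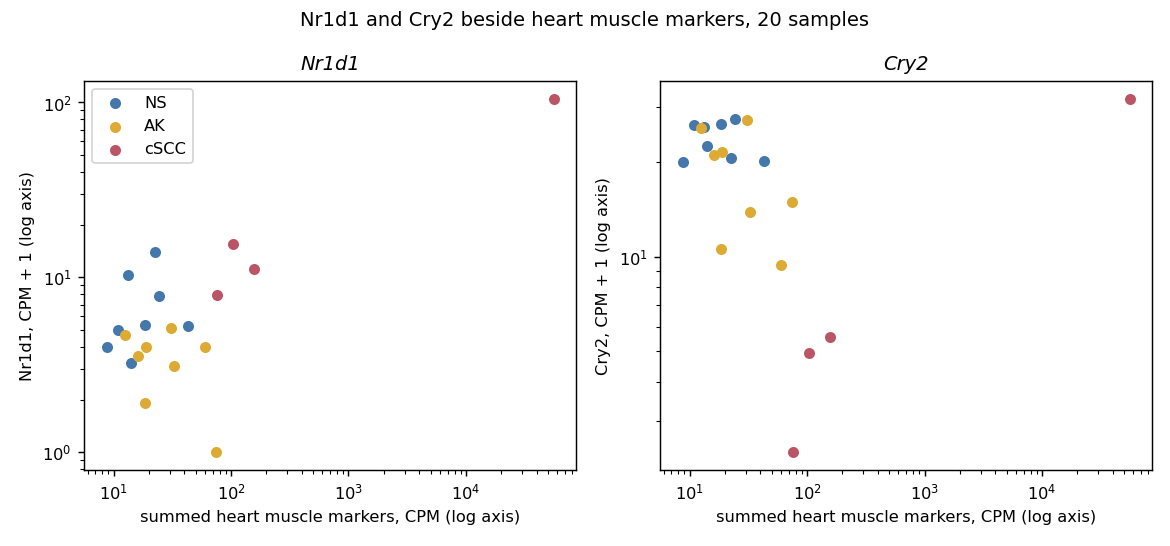
CPM + 1 of Nr1d1 (left) and Cry2 (right) against the summed CPM of 6 heart muscle markers in each of the 20 samples, both axes logarithmic, points coloured by group. Replicate 21 of cSCC stands alone at a marker sum of 56271 CPM and is the highest sample for both genes, and the other 3 cSCC are the lowest samples for Cry2.

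In AK vs. NS the difference of Nr1d1 had the other sign, at -1.21 (SE 0.43, adjusted p = 0.0964), short of the call. DESeq2 gave -1.23 with an adjusted p of 0.0456. Of the 8 NS, 5 lay above every AK. Nr1d2, which encodes REV-ERB beta (chr14:18204054-18239127, minus strand), was not called in any comparison. It was 49.6 CPM at the lowest, 91.9 at the median and 157 at the highest in NS, 71.8, 90.9 and 147 CPM in AK, and 79.9, 76.5, 39.8 and 75.1 CPM in cSCC. Its log2 fold changes were 0.11 (SE 0.22, adjusted p = 0.788) in AK vs. NS, turning to -0.015 under library size alone, -0.36 (SE 0.32, adjusted p = 0.463) in cSCC vs. NS and -0.42 (SE 0.25, adjusted p = 0.243) in cSCC vs. AK. The lowest cSCC was replicate 20, the library with the lung markers.

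Rora, the activator that competes with the REV-ERB receptors for ROR elements (chr9:68653786-69388246, plus strand), was 344 CPM at the lowest, 491 at the median and 769 at the highest in NS and 336, 490 and 670 CPM in AK. In cSCC it was 93.8, 26.4, 122 and 44.8 CPM, all below every NS and AK sample. Its log2 fold change was -2.82 (SE 0.45, adjusted p = 0.00171) in cSCC vs. NS and -2.68 (SE 0.40, adjusted p = 0.00194) in cSCC vs. AK, called under every alternative run, and -0.12 (SE 0.19, adjusted p = 0.744) in AK vs. NS. Arntl, on which both arms act, was not called in any comparison.

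Dbp, the PAR bZIP factor that binds D-boxes (chr7:45705088-45710203, plus strand), was the least abundant member. It was 1.06 CPM at the lowest, 2.68 at the median and 7.65 at the highest in NS, from 2 to 34 counts, and 0, 0.899 and 3.03 CPM in AK, where replicates 12 and 14 had no count. In cSCC it was 2.08, 1.76, 0 and 5.13 CPM, from 3, 4, 0 and 31 counts. The filter on low counts removed Dbp from AK vs. NS and cSCC vs. AK, and in cSCC vs. NS it gave -0.33 (SE 0.74, adjusted p = 0.795). With every gene of at least 1 count kept, it gave -1.40 (SE 0.67, adjusted p = 0.237) in AK vs. NS and 0.82 (SE 1.00, adjusted p = 0.596) in cSCC vs. AK. No difference of Dbp was detectable at this depth. Dbp shares 539 exon bases with Sphk2 on the opposite strand, which adds the same doubt about strand. The doubt also holds for Cry2, which shares 295 exon bases with D930015M05Rik on the opposite strand, a gene without a row in the counts. Arntl (33 bases) and Rora (82 bases) overlap other opposite-strand genes without a row.

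Compared per length, as mean CPM per kb of exon in NS, the order was Rora (40.2), Nr1d2 (16.7), Cry1 (6.73), Clock (4.46), Cry2 (3.58), Per3 (3.39), Per2 (2.62), Per1 (2.42), Arntl (2.36), Nr1d1 (1.91) and Dbp (1.11). From Cry1 downwards, neighbours in this order differed by less than the larger of their SDs. In AK, Clock (7.30) came closer to Cry1 (8.99) and Nr1d1 (0.787) was above Dbp (0.401) alone. In cSCC, Nr1d1 (11.03) stood next to Nr1d2 (12.5) on this scale, and Per2 (0.686) was the lowest of the 11 genes. Both places rest on replicate 21. Without it Nr1d1 was at 3.43, and Dbp (0.428) was the lowest, followed by Cry2 (0.522) and Per2 (0.538).

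Of 20 other clock genes, 17 were tested in each comparison. In AK vs. NS, 0 were higher and 2 were lower by edgeR, with a median log2 fold change of -0.07. By the unadjusted p, by DESeq2 and by limma voom, 2 were higher (Nfil3 and Bhlhe40, named after their values were seen). The lower genes were Csnk1e, a casein kinase that phosphorylates PER proteins (-0.78, SE 0.17, adjusted p = 0.0190), and Usp2, a deubiquitinase under clock control (-0.82, SE 0.18, adjusted p = 0.0217). The Usp2 call was lost without NS replicate 4 (adjusted p = 0.0518) or AK replicate 13 (0.0506). In cSCC vs. NS, 1 was higher and 2 were lower, with a median of 0.41. This median was -0.17 without cSCC replicate 21, -0.09 with limma voom and 0.14 with library size alone, and the median of all genes tested, with all samples, was 0.14. Bhlhe40, a repressor that competes for E-boxes, rose (0.97, SE 0.32, adjusted p = 0.0476), but lost the call without any 1 sample other than NS replicate 7 and cSCC replicate 20 (adjusted p of 0.0523 to 0.151). Hlf, the PAR bZIP relative of Dbp, fell (-1.61, SE 0.53, adjusted p = 0.0473), from 10.7 to 60.9 CPM in NS to 15.3, 3.95, 20.5 and 9.43 CPM in cSCC. The Hlf call was lost without any 1 of NS replicates 1, 4, 5, 6, 7 and 9 or cSCC replicates 19 and 21 (adjusted p of 0.0613 to 0.113). Csnk1e (-0.997, SE 0.28, adjusted p = 0.0236) was also lower. In cSCC vs. AK, 0 were higher by edgeR, 2 by the unadjusted p and by DESeq2 (Ciart and Btrc, named after their values were seen) and 0 by limma voom. By edgeR 1 was lower, Hlf (-1.44, SE 0.41, adjusted p = 0.0217), and limma voom did not call it (adjusted p = 0.0819). The median in cSCC vs. AK was 0.32, beside 0.17 over all genes tested, and became -0.15 without cSCC replicate 21, 0.06 without AK replicate 12, -0.11 with limma voom and 0.04 with library size alone. With limma voom, 0 of the 17 were called in cSCC vs. NS. Without replicate 21, the cSCC vs. NS calls of Hlf and Csnk1e were lost (adjusted p of 0.104 and 0.0571).

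How far the members varied was read from the 8 NS, which came from 8 animals. By the study's description 4 of these were irradiated and 4 were not, and the time of collection is unknown. The parts of irradiation, time of day and mouse in this spread cannot be told apart. As the SD of log2(CPM + 1), Per3 was at 0.88, Cry1 at 0.82, Per2 at 0.81, Per1 at 0.76 and Nr1d1 at 0.71. Of 8982 genes with a mean of at least 10 CPM over the 20 samples, 90.2% had a smaller SD than Per3, 88.3% than Cry1, 87.7% than Per2 and 85.8% than Per1. Nr1d1 passed this limit only through cSCC replicate 21, at 104 CPM, against a mean of 5.87 CPM in NS. No such share is therefore printed for Nr1d1. The spread of Cry1 rested on NS replicate 4 (0.43 without it) and that of Per1 on NS replicate 2 (0.45 without it). Per3 fell to 0.65 without NS replicate 8, and Per2 and Nr1d1 fell to 0.57 and 0.56 without NS replicate 5. Cry2, at 0.20, was at the other end, with 4.40% of genes below it, and Clock, at 0.31, had 24.5% below it. Arntl, at 0.42, was at the median of all genes (0.42). In AK, Per2 had an SD of 1.23 with 96.8% of genes below it, which rested on replicate 12, at 1 count, and was 0.64 without it. Clock had the smallest SD of the members in AK, at 0.20 with 8.49% of genes below it. Counting error is larger at low levels, and its part in this spread was not tested.

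Pairs of members were then compared across the NS. None of the 55 pairs of the 10 members and Rora passed an exact permutation test with Benjamini-Hochberg adjustment, for Pearson's r or for Spearman's rho, and 8 pairs did so unadjusted at 0.05 for each. Without NS replicate 2 or NS replicate 7, 1 pair passed for r. It was not Nr1d1 with Dbp, whose adjusted p was at least 0.0655 over 10 alternatives, whereas that of Clock with Nr1d2 reached 0.0218. With all 8 NS the closest pair was Nr1d1 with Dbp, at r = 0.92 (exact permutation p = 0.00122, adjusted 0.0668). Its rho was 0.88 (exact permutation p = 0.00724, adjusted 0.199). Without the 2 NS farthest from the median of Nr1d1, its r was 0.88. Nr1d1 and Dbp were both highest in NS replicate 5, at 13.05 and 7.65 CPM, which also had the lowest Per2 of the 8. Clock with Nr1d2 gave r = -0.81 (exact permutation p = 0.0154, adjusted 0.265) and rho = -0.90 (exact permutation p = 0.00456, adjusted 0.199), with r = -0.67 without the 2 farthest. Clock with Cry1 gave r = 0.77 (exact permutation p = 0.0105, adjusted 0.265) and rho = 0.83 (exact permutation p = 0.0154, adjusted 0.200). In AK, where samples share mice and r is a description only, the same pairs gave 0.23, -0.52 and 0.07. Whether the irradiated and unirradiated NS fell apart in these pairs cannot be told from the labels.

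**Figure D5:**
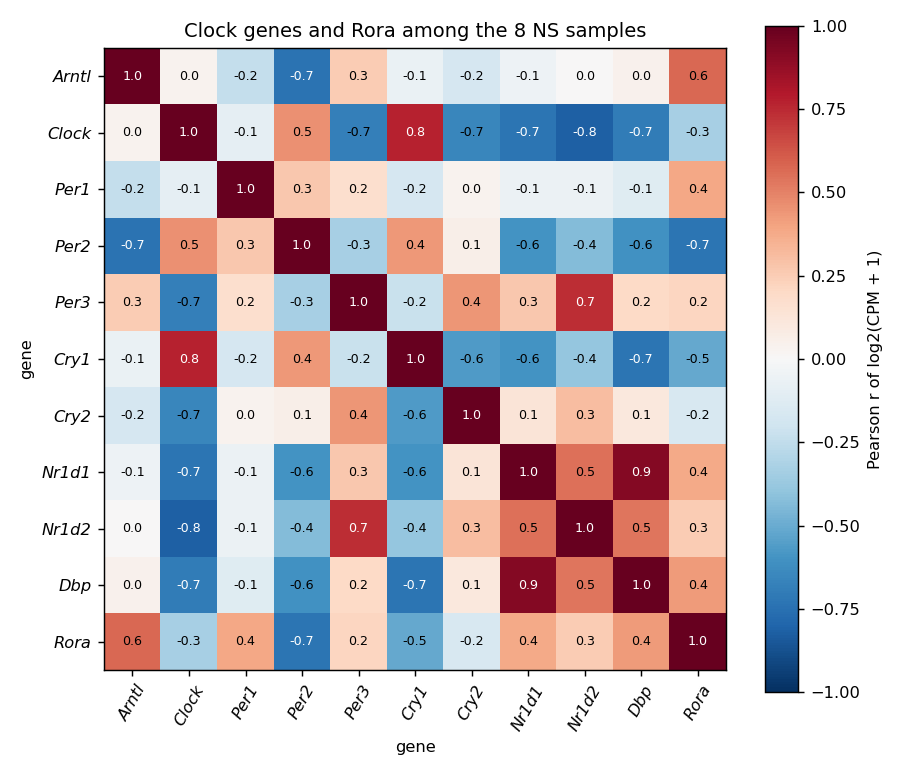
Pearson's r of log2(CPM + 1) over the 8 NS for each pair of the 10 clock genes and Rora, from -1 (blue) to 1 (red). Nr1d1 with Dbp is the most positive pair (0.92) and Clock with Nr1d2 the most negative (-0.81), and no pair passed the adjusted test.

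Among 8981 genes with a mean of at least 10 CPM, the 5 most like Dbp over the 8 NS were Fam219b (r = 0.98), Ahnak (0.95), Dtx2 (0.95), Fer (0.94) and Ing4 (0.93). Over all 20 samples their r with Dbp was 0.42, 0.04, 0.46, 0.34 and 0.25. The 5 most like Arntl over the 8 NS were Atg3 (0.96), Them4 (0.96), Hrnr (0.92), Sptssa (0.92) and Il18rap (0.90), with 0.18, 0.52, -0.01, -0.11 and 0.38 over all 20. No member of the clock was in either set of 5. These genes were picked from 8981 as the highest r over 8 samples, so their r within NS is a description only.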

How the data were processed

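The authors deposited raw read counts per gene symbol for 20 skin tissues, which were not normalized. The labels' processing notes name Trimmomatic 0.36, HISAT2 2.0.5, featureCounts 1.5.2 and the builds hg19 and mm9, whereas the study's methods name GRCm38 and StringTie. Which of them made the counts, and the strand used, are not given in the sources used here. Counts within a group differed by more than sampling noise in each of 62 sample pairs, with a chi-square of at least 12.3 per degree of freedom.

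Groups came from the labels. Each pair of groups was fitted on its own samples with edgeR 4.0.16 in R 4.3.3 (TMM factors, filterByExpr, quasi-likelihood test, Benjamini-Hochberg adjustment over all genes tested). The standard error is the size of the log2 fold change divided by the square root of F. Tested on simulated data with a log2 fold change of 2, the fit recovered 91.0% of 188 changed genes with 6 false calls in AK vs. NS. It recovered 50.8% of 199 with 8 false calls in cSCC vs. NS, and 55.6% of 196 with 4 false calls in cSCC vs. AK. The simulated libraries were independent draws, without shared mice or an outlying library, so these rates may not hold for the real samples. Correlations used log2(CPM + 1) and all 40320 pairings of 8 NS, in scipy 1.17.1. Coordinates and exon lengths are from GENCODE on GRCm38, and promoters from RefSeq.

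Members, the list of other clock genes and the marker lists were chosen with earlier results of these data known. A result that concerns a withheld item is not reported here. Named were all members, Rora, other clock genes called in a comparison, and the 5 genes most like Dbp and Arntl in NS. Alternatives were voom with sample quality weights in limma 3.58.1, DESeq2 1.42.0, upper quartile factors, library size alone, other count filters (at least 1 count in all, or at least 10 in every sample), all 20 samples in 1 fit, no adjustment, no fold limit, the study's equal-variance two-sample rule, and leaving out samples. A fit without haemoglobin genes was added once the data had been seen.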

Additional observations from a re-analysis of the deposited data

Results flagged for a closer look

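In 39 groups of samples, each a member's or Rora's CPM or the summed heart muscle or lung markers in 1 tissue group, the gap of the highest or lowest sample to its neighbour was divided by the range of the group and compared with Dixon's critical value at the number of samples. Of these, 7 exceeded it. Chance gives about 1 in 20 for independent groups of normally distributed values. Here CPM were used without logarithms, groups shared libraries, and the marker lists were chosen with earlier results known. The 7 therefore cannot be set against that rate. In cSCC replicate 21, Nr1d1 stood at 104 CPM, Cry2 at 30.8 CPM and the heart muscle markers at 56271 CPM, each far above the other 3 cSCC. In cSCC replicate 20, Nr1d2 stood at 39.8 CPM, below the others, and the lung markers at 35805 CPM, above them. The other 2 were small sums, of heart muscle markers in NS replicate 8 (42.6 CPM) and of lung markers in AK replicate 12 (51.7 CPM).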

How the results depend on the processing

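Against 542 genes called in AK vs. NS, 1798 were called with the unadjusted p, 1049 with DESeq2, 1043 with limma voom, 1841 with the study's rule and 9 with all 20 samples in 1 fit, and against 1 clock gene these settings gave 3, 3 (DESeq2), 3 (study's rule) and 0 (1 fit). Against 2340 in cSCC vs. NS, 4052 were called with the unadjusted p, 1308 with limma voom, 1526 with at least 10 counts in every sample and 1558 without replicates 20 and 21, and against 2 clock genes 1 with DESeq2, 1 with voom, 0 with the 10-count filter (5 members tested), 4 with the study's rule and 1 without the 2 replicates. Against 2935 in cSCC vs. AK the same settings gave 4504, 1270, 1731 and 1584, and the 10-count filter gave 1 clock gene in place of 3. Leaving out 1 sample gave 164 to 920 genes and 1 to 2 clock genes in AK vs. NS, 1695 to 3181 and 1 to 2 in cSCC vs. NS, 1787 to 3994 and 2 to 4 in cSCC vs. AK, and 0 to 1 adjusted NS pairs. Signs turned for genes not called with all samples. In AK vs. NS these were Per2 (-0.016, study's rule) and Nr1d2 (-0.015, library size alone). In cSCC vs. NS they were Arntl (-0.32 without both replicates), Usp2 (0.56 with all samples, -2.68 voom, -1.62 study's rule, -2.92 without both replicates) and Per1 (-0.20 voom, -0.26 library size, -0.047 upper quartile, -0.046 with genes of 1 count, -0.075 in 1 fit, -0.039 without haemoglobin, -0.74 without both replicates). In cSCC vs. AK they were Arntl (-0.044 library size, -0.0045 with genes of 1 count, -0.45 without both replicates), Usp2 (1.5 with all samples, -1.80 voom, -0.79 study's rule, -2.08 without both replicates) and Per1 (-0.10 voom, -0.11 library size, -0.11 with genes of 1 count, -0.043 in 1 fit, -0.67 without both replicates). Without 1 sample, Per1 ranged from -0.22 to 0.11 in AK vs. NS, from -0.29 to 0.18 in cSCC vs. NS and from -0.30 to 0.29 in cSCC vs. AK, Arntl from -0.041 to 0.42 and Per3 from -0.91 to 0.14 in cSCC vs. AK, and Usp2 from -3.09 to 0.94 in cSCC vs. NS and from -2.32 to 1.89 in cSCC vs. AK, its lowest values being called and both without replicate 21. The 10-count filter and 1 fit change the genes or samples tested, and the cause of the other shifts was not tested. No paired analysis was possible because the replicate numbers in the labels do not repeat between groups and no label names the mouse. Depth limits Dbp, Per2, Cry2 and Nr1d1 most, since several of their libraries hold 10 counts or fewer.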

Other observations

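Usp2, a deubiquitinase under clock control, was 19.4 to 45.8 CPM in NS and 14.7 to 27.2 CPM in AK. In cSCC it was 7.64, 1.76, 2.28 and 173 CPM, so that 3 of 4 lay below every NS and AK and replicate 21, the library with the heart muscle markers, above them all. With all 4 cSCC the log2 fold change of Usp2 by edgeR's quasi-likelihood test was 0.56 (adjusted p = 0.666) vs. NS and 1.5 (adjusted p = 0.187) vs. AK, neither called. Without replicate 21 the direction was reversed, at -3.09 (adjusted p = 0.00148) vs. NS and -2.32 (adjusted p = 0.00528) vs. AK, both called. Cry2 was split between the same samples in the same way, and the pair was chosen with these values in view.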
